A study of Homo sapiens with 5 samples.

Results

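The proteasome is the protease that degrades proteins tagged with ubiquitin. Its 20S core is a barrel of alpha rings and beta rings with the cutting sites inside, and its 19S cap holds a base of ATPases that unfolds the substrate and a lid that removes the ubiquitin. Dedicated chaperones build these parts, and other activators or inhibitors can take the place of the cap. Erythroid precursors use this system, among other things, to clear globin chains that have found no partner.

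The genes described here are the rows of the authors' deposited table whose symbol begins with PSM, a letter from A to G and a number. Of 49 such rows, the 3 immunoproteasome genes (PSMB8, PSMB9 and PSMB10) and 1 pseudogene (PSMC1P1) were left out. This left 45 of the 11976 genes in the table. The label "proteasome subunits and assembly factors" covers 42 of them. The other 3 are PSMC3IP, a recombination factor that only shares the prefix, and the RNAs named PSMD5-AS1 and PSMD6-AS2. The table lists PSMD5-AS1 under an identifier that GENCODE 29 names CUTALP, a transcribed pseudogene, and it was kept because its symbol in the table is that of an antisense RNA. The 42 hold 14 subunits of the 20S core, 17 of the 19S cap, 6 assembly factors, and 5 activators or inhibitors. PSMG2, PSMA8 and PSMB11 were not analysed here.

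Bulk RNA-seq had been done on HUDEP-2 cells, an immortalised erythroid progenitor line from umbilical cord blood, in 3 libraries labelled as ERF knockout and 2 labelled as wild type, whose titles read SCR. ERF is an ETS-domain repressor of transcription. The labels name no other allele or agent in either group, and they do not say whether the knockout is a single clone, what SCR stands for or whether libraries are separate cultures, so p-values reflect only the spread between samples that may be technical repeats. Fold changes, mean log2 CPM, F statistics and p-values are deposited per gene and not per library, so neither the level in each group nor the depth of each library is known. In bulk RNA, fewer cells of a type and less RNA per cell cannot be told apart.

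The header of that table does not say which group is on top of the fold change. Values here are the deposited ones multiplied by -1, so that HBG2, a γ-globin gene, is higher in the libraries labelled knockout, as the title of the series implies. HBG2 then stands at a log2 fold change of 1.88 ± 0.22 (SE) in the authors' deposited table. ERF itself then stands at 0.89 ± 0.07 (SE), which goes against its label as a knockout, although RNA does not show whether the transcript is intact. If the sign is the other way round, every "higher" and "lower" below is exchanged. What holds under either sign is that the 23 proteasome proteins that passed the test moved in the same direction as HBG2 and ERF, and opposite to ATF4, the stress transcription factor, at -0.88 in the authors' deposited table. Erythroid markers were abundant in these libraries, from 7.12 log2 CPM for HBA1 and 7.36 for GATA1 to 11.89 for TFRC and 12.48 for HBB.

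Proteasome genes leaned higher in the libraries labelled ERF knockout, by small amounts. Of the 45 genes, 23 were higher, 2 lower and 20 not past an adjusted p of 0.05 in the authors' deposited table. Over all 11976 genes, 50.9% passed this test, 24.9% higher and 25.9% lower. Both lower genes, PSMD5-AS1 and PSMC3IP, encode no proteasome protein, so the 42 proteasome proteins divide into 23 higher, 0 lower and 19 without a call. With p-values left unadjusted, at 0.05, the count of lower proteasome proteins was also 0, since the 5 negative values all had p-values above it. The median log2 fold change of the 42 was 0.17, a 1.13-fold difference, against a median of -0.0019 over all genes. Differences were small, with 16 of 42 at an absolute log2 fold change of 0.2 or more and a largest value of 0.59, for PSME3. Over all 11976 genes, 6143 reached 0.2 in either direction. Centring all values on the median of genes of at least 5 log2 CPM took PSMB1, PSMC5 and PSME1 out of the calls, which left 20 higher; requiring an absolute log2 fold change of 0.2 as well left 15.

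**Figure D1:**
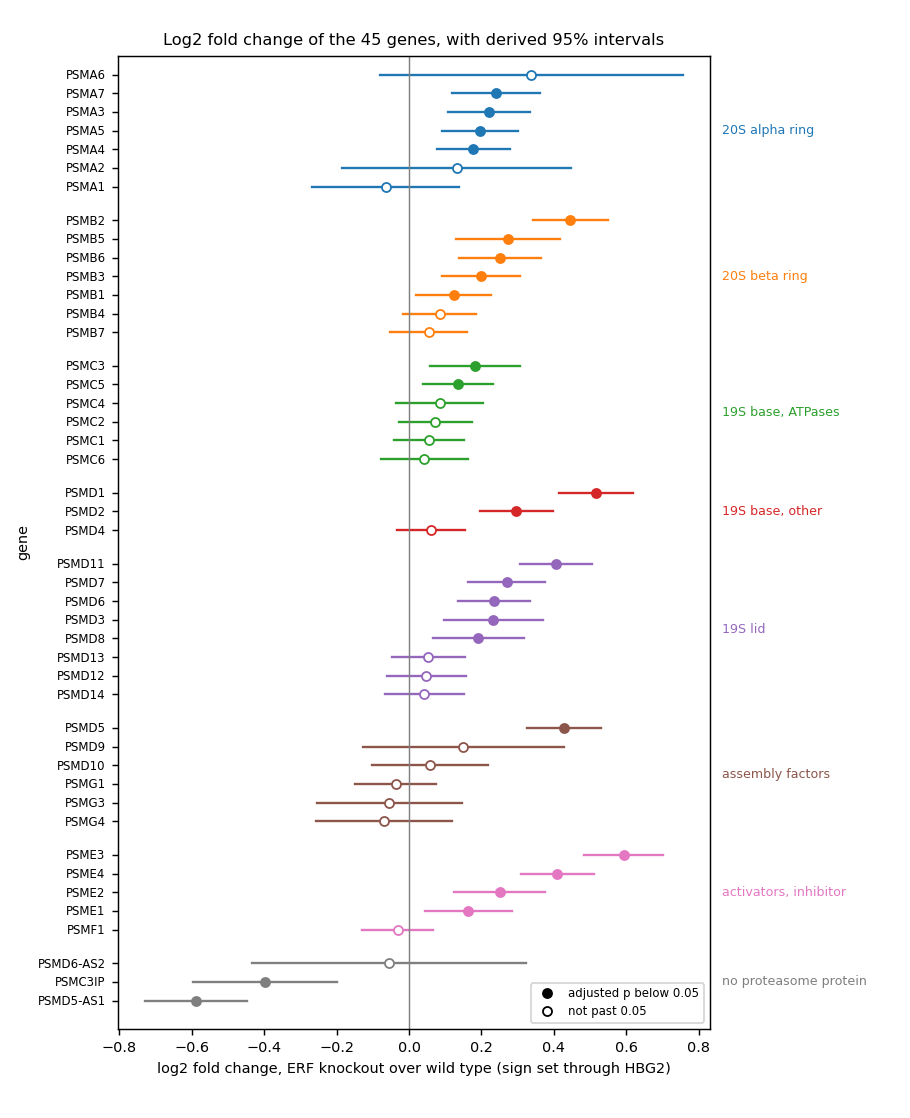
Log2 fold change of the 45 genes by role, ERF knockout over wild type, with the sign set through HBG2. Each point is the value of the authors' deposited table and each bar its derived 95% interval; filled points passed an adjusted p of 0.05. The 23 filled points right of 0 are all proteasome proteins, and the 2 filled points left of 0 are PSMD5-AS1 and PSMC3IP.

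Part of this contrast with all genes goes with expression level. Most proteasome genes are well expressed, and 34 of the 42 have a mean of 5 to 8 log2 CPM. In that range 32.0% of 4757 genes passed the test as higher and 24.6% as lower, and their median log2 fold change was 0.04. Of the 34 proteasome proteins there, 22 were higher (64.7%) and none lower, around a median of 0.19. Their values also lay closer together than those of other genes. Their interquartile range was 0.06 to 0.25 on the log2 scale, against -0.14 to 0.19 for the 4757 genes. An absolute log2 fold change of 0.2 or more was reached by a similar share, 14 of the 34 and 2030 of the 4757. The range of 5 to 8 was chosen after the values had been seen.

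**Figure D2:**
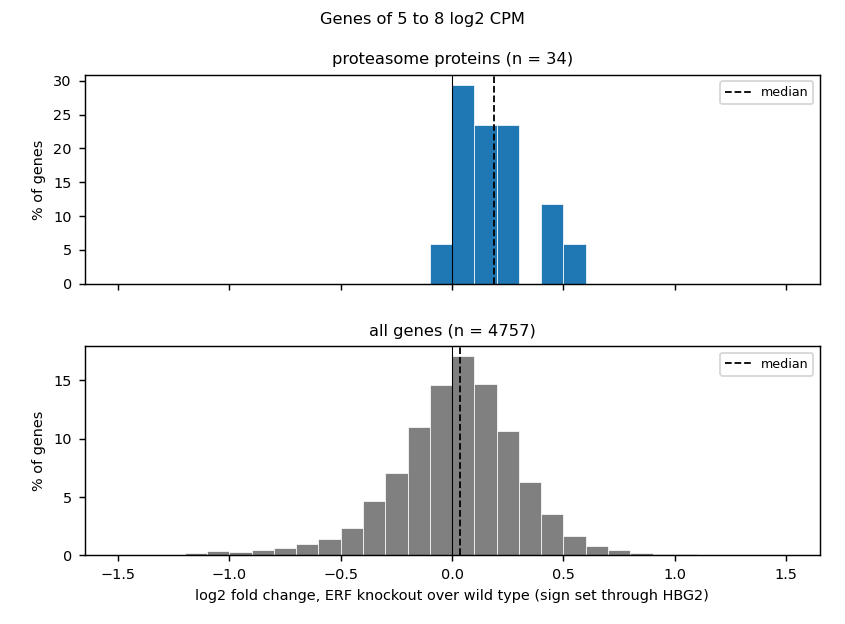
Log2 fold change, ERF knockout over wild type with the sign set through HBG2, as the share of genes in bins of 0.1, for 34 proteasome proteins (top) and all 4757 genes (bottom) of 5 to 8 log2 CPM. The dashed lines mark medians of 0.19 and 0.04; the bottom panel leaves out 18 genes beyond 1.5 in either direction.

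Promoters of the proteasome genes are shown here because the 23 proteasome proteins that passed the test had the same sign and because factors known to act on them, or on the same type of site as ERF, recognise short motifs. NFE2L1, the activator that raises proteasome genes when proteasomes are short, binds with small MAF proteins to sites of the form TGACNNNGC. ETS proteins, the family of ERF, bind around GGAA, here searched as CCGGAAG. The factor NF-Y binds CCAAT. Each motif was searched on both strands in windows of 250 bases before to 50 bases after each listed start of a gene, from RefSeq (GRCh38.p14). Some genes, PSMF1 and PSMA4 among them, had more than one window. A gene was counted as having a motif if any of its windows did, so more windows gave more room for a match. Of the 42, 36 matched by symbol; PSMA7, PSMB1, PSMB6, PSMB7, PSMD4 and PSMG3 did not.

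TGACNNNGC was present in promoters of 13 of 36 proteasome genes (36.1%). The share was 19.8% of the 8477 table genes with a promoter in the same table and 16.1% of all 27305. It was found in 9 of the 20 higher genes with a promoter and in 4 of the 16 that did not pass the test. The following stretches show such sites, in capitals and as read on the gene's strand, first in 5 higher genes and then in 2 that did not pass the test.
PSME4 (chr2:53971009-53971037, minus strand): cccggcggctGCAGCGTCAccagcagagc
PSMD5 (chr9:120843038-120843066, minus strand): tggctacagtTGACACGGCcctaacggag
PSMD3 (chr17:39980760-39980788, plus strand): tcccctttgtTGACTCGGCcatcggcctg
PSMB3 (chr17:38752627-38752655, plus strand): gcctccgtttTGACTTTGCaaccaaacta
PSMA4 (chr15:78540650-78540678, plus strand): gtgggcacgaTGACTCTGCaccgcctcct
PSMD12 (chr17:67366724-67366752, minus strand): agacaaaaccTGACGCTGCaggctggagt
PSMG1 (chr21:39183616-39183644, minus strand): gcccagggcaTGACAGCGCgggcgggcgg

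The ETS-type motif had another distribution. CCGGAAG was present in promoters of 14 of 36 proteasome genes (38.9%), against 24.1% of table genes and 12.2% of all genes. It was found in 4 of the 20 higher genes and in 10 of the 16 that did not pass the test (62.5%). Of the latter with the motif, PSMA6 (0.34), PSMD9 (0.15) and PSMG4 (-0.07) were under 5 log2 CPM, and the rest were above it. The intervals of PSMA6 and PSMD9 were wide, with upper ends of 0.76 and 0.43. The stretches below carry it in capitals, on the opposite strand as CTTCCGG, in 3 higher genes and then in 4 that did not pass the test.
PSME4 (chr2:53971057-53971083, minus strand): ccgccccgccCCGGAAGtgacttgagg
PSMD6 (chr3:64023515-64023541, minus strand): ggagacgggaCCGGAAGccgggccgca
PSMD8 (chr19:38374544-38374570, plus strand): caaaagccaaCTTCCGGtcaccatctt
PSMC6 (chr14:52707083-52707109, plus strand): acggggccaaCCGGAAGgggagggctc
PSMD13 (chr11:236954-236975, plus strand): ccgctcggcgCCGGAAGtgagt
PSMG4 (chr6:3258893-3258919, plus strand): cacccccgccCTTCCGGggccgaaagc
PSMF1 (chr20:1118473-1118499, plus strand): caagacccggCTTCCGGctttgagggg

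CCAAT was present in promoters of 18 of 36 proteasome genes (50.0%), against 43.4% of table genes and 39.7% of all genes. It was found in 13 of the 20 higher (65.0%) and 5 of the 16 others (31.2%). A higher gene and a gene not past the test are shown at length, with every match to the 3 motifs in capitals. The PSMB3 stretch holds a TGACNNNGC match and a pair of CCAAT matches, and the PSMC6 stretch holds CCGGAAG alone. They are examples and do not stand for their groups. The higher genes PSMD6, PSMD7 and PSMD8 have CCGGAAG with CCAAT, as do PSMC2 and PSMD14, which did not pass the test.
PSMB3 (chr17:38752491-38752735, plus strand): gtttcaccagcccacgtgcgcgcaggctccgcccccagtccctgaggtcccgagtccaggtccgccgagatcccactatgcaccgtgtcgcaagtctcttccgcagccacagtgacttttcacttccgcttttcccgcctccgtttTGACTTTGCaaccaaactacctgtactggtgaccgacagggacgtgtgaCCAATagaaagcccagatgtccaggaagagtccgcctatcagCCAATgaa
PSMC6 (chr14:52706950-52707171, plus strand): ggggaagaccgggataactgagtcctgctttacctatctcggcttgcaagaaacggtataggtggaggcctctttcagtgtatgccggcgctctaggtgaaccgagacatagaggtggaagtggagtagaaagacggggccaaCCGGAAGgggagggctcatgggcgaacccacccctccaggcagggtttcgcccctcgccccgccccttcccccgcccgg
These shares describe letters in windows and were given no test, and a match is not a bound site. Genes not past the test include weakly counted ones, so they are not a set of genes without a difference. The division into higher genes and genes not past the test was made for proteasome genes only. Whether other genes divide in the same way for these motifs is not known.

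In the 20S core, 9 of 14 subunits were higher (64.3%) and 0 lower, against 24.9% higher and 25.9% lower over all genes. Among genes of 5 to 8 log2 CPM, where most core subunits lie, the shares were 32.0% higher and 24.6% lower. The median log2 fold change of the core was 0.20. The beta ring carries the cutting sites. PSMB5, the chymotrypsin-like subunit and the main target of bortezomib, stood at 0.27 ± 0.06 (SE) (adjusted p = 0.00548) in the authors' deposited table. PSMB6, the caspase-like subunit, stood at 0.25 ± 0.05 (SE) (adjusted p = 0.00236) there. PSMB7, the trypsin-like subunit, stood at 0.05 with a 95% interval of -0.05 to 0.16 and did not pass the test. Its interval overlaps those of PSMB5 and PSMB6, and differences between subunits were not tested. Among the beta subunits without a cutting site, PSMB2 was the highest of the core at 0.45 (1.36-fold, adjusted p = 3.92e-05) in the authors' deposited table. PSMB3 followed at 0.20 and PSMB1 at 0.12, just inside the threshold with an adjusted p of 0.0494. PSMB4 stood at 0.08 (adjusted p = 0.143).

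The alpha ring forms the gate through which substrates enter. PSMA7 (0.24), PSMA3 (0.22), PSMA5 (0.20) and PSMA4 (0.18) were higher in the authors' deposited table, within a span narrower than the interval of any of them. PSMA6 (0.34), PSMA2 (0.13) and PSMA1 (-0.06) did not pass the test, with 95% intervals of -0.08 to 0.76 for PSMA6, -0.19 to 0.45 for PSMA2 and -0.27 to 0.14 for PSMA1. Those of PSMA6 and PSMA2 are the widest of the alpha ring.

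These 3 alpha subunits were also counted at levels far from those of their partners in the ring. Per kilobase of exon in GENCODE 29, a newer annotation than that of the authors' build, they reached -1.98 log2 CPM per kb for PSMA6, -0.87 for PSMA2 and 1.39 for PSMA1, as levels over all 5 libraries. The other 11 core subunits ranged from 3.66 to 6.46 log2 CPM per kb, and the 17 cap subunits from 3.73 to 5.82. Each of the 3 shares exonic bases with a second coding gene on its own strand in that annotation, namely 14.1% of the exonic bases of PSMA6, 14.6% of PSMA2 and 24.7% of PSMA1, and none of the other 11 does. The only other proteasome protein with such a partner is PSMD9, an assembly factor, at 19.9% of its exonic bases and a level of -1.45 log2 CPM per kb. A low level was also found without such a partner, at 0.77 log2 CPM per kb for the assembly factor PSMG4. The authors' deposited table assigns 8.17% of its summed CPM to reads ambiguous between genes. Whether reads of these 4 genes are among them was not tested, and their fold changes are uncertain.

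**Figure D3:**
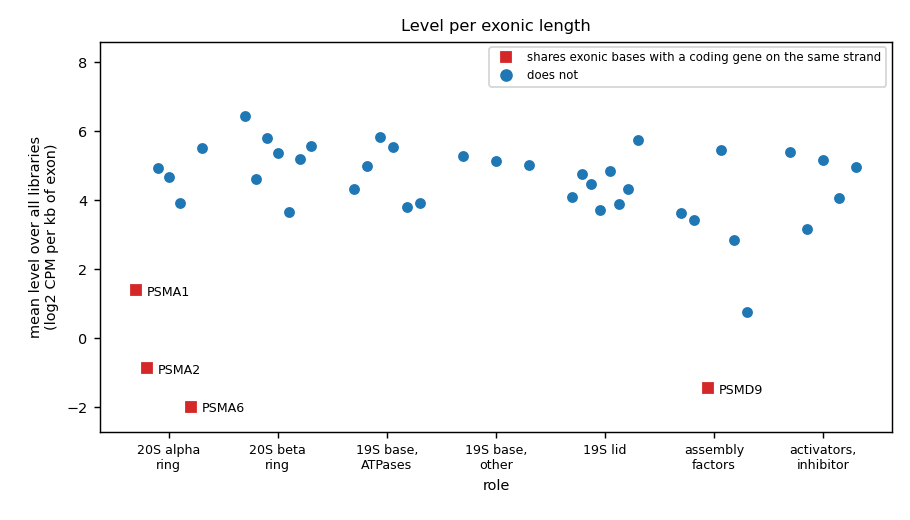
Mean level over all 5 libraries, in log2 CPM per kilobase of exon (GENCODE 29), of the 42 proteasome proteins by role. The squares are the 4 genes that share exonic bases with a coding gene on the same strand; 3 of them lie at 1.39 and below in the alpha ring, where the circles lie at 3.91 and above, and the fourth is PSMD9.

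In the 19S base, 4 of 9 subunits were higher (44.4%) and 0 lower, against 32.0% higher and 24.6% lower among genes of 5 to 8 log2 CPM. PSMD1, the large scaffold on which the base is organised, was 1.43-fold higher, at 0.52 ± 0.05 (SE) (adjusted p = 1.35e-05) in the authors' deposited table. PSMD2, the other scaffold, which docks ubiquitin shuttles, stood at 0.30 (adjusted p = 0.00039) there. PSMD4, a ubiquitin receptor, stood at 0.06 and did not pass the test. The 6 ATPases, which form the unfolding ring, had smaller values. PSMC3 (0.18) and PSMC5 (0.14) were higher in the authors' deposited table, and PSMC4 (0.08), PSMC2 (0.07), PSMC1 (0.06) and PSMC6 (0.04) did not pass the test. No ATPase reached an absolute log2 fold change of 0.2, and the upper ends of the 4 intervals not past the test lay between 0.15 for PSMC1 and 0.20 for PSMC4. Both scaffold values exceed every ATPase value, and PSMD1's interval (0.41 to 0.62) lies above those of all 6.

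No source used here gives the strand setting of the counting, which bears on some of these genes. In GENCODE 29, 75.8% of the exonic bases of PSMC1 are also exon of NRDE2 on the opposite strand, and NRDE2 stood at 0.28 in the authors' deposited table. For PSMC5 the share is 19.5%, with FTSJ3, which stood at 0.58 there. For PSMD7 it is 30.7%, with a noncoding transcript, and for PSMD1 10.8%, with HTR2B. The other proteasome proteins of the 6 with over 10% are PSMG4, in part through TUBB2B (-1.12 in the authors' deposited table), and PSMA2, in part through MRPL32 (0.16 there). Without strand, reads that lie wholly in the shared bases cannot be assigned to one gene of a pair, whereas reads in the other exonic bases can. How the counting treated such reads is not known.

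In the lid, 5 of 8 subunits were higher (62.5%) and 0 lower, against 32.0% higher and 24.6% lower among genes of 5 to 8 log2 CPM. The median log2 fold change of the lid was 0.21. PSMD11, which clamps the cap to the core, was 1.32-fold higher, at 0.41 ± 0.05 (SE) (adjusted p = 5.57e-05) in the authors' deposited table. PSMD7 (0.27), the inactive partner of the lid's ubiquitin-removing enzyme, was higher there as well. PSMD6 and PSMD3 each stood at 0.23 and PSMD8 at 0.19, and these 3 structural lid subunits were also higher. The lid values fell into a higher and a lower set with a gap between PSMD8 at 0.19 and PSMD13 at 0.05. PSMD14, the ubiquitin-removing enzyme itself, stood at 0.04, and the structural subunits PSMD12 and PSMD13 stood at 0.05 each in the authors' deposited table. None of these 3 passed the test, and their intervals end at 0.15 or 0.16, below the values of the 5 higher subunits.

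Most assembly factors did not pass the test. Of 6 measured, 1 was higher (16.7%) and 0 lower, against 24.9% higher and 25.9% lower over all genes. Their median log2 fold change was 0.01. The higher gene was PSMD5, a chaperone of the ATPase ring, at 0.43 ± 0.05 (SE) (1.34-fold, adjusted p = 4.5e-05) in the authors' deposited table. The other chaperones of that ring, PSMD9 (0.15) and PSMD10 (0.06), did not pass the test. PSMD9 had a mean of only 1.69 log2 CPM and a wide interval of -0.13 to 0.43. The chaperones of the alpha ring, PSMG1 (-0.04), PSMG3 (-0.05) and PSMG4 (-0.07), were not past it either. PSMG1 was measured as precisely as the subunits, with an interval of -0.15 to 0.08, whereas PSMG3 and PSMG4 had lower expression and wider intervals, reaching 0.15 and 0.12.

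PSMD5 and the RNA named PSMD5-AS1 differed in opposite directions. PSMD5-AS1 was 1.50-fold lower, at -0.59 ± 0.06 (SE) (adjusted p = 4.51e-05) in the authors' deposited table, against 0.43 for PSMD5. The genes lie on opposite strands with overlapping spans in GENCODE 29, but share none of PSMD5's exonic bases there. PSMD6-AS2, with a mean of only 0.45 log2 CPM, stood at -0.06 and did not pass the test, while PSMD6 was higher. PSMC3IP stood at -0.40 (adjusted p = 0.00401) in the authors' deposited table.

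The activators held the largest difference of the 42 proteasome proteins. PSME3, the nuclear activator known as PA28γ or REGγ, was 1.51-fold higher, at 0.59 ± 0.05 (SE) with a 95% interval of 0.48 to 0.70 (adjusted p = 7.9e-06) in the authors' deposited table. PSME4, the large activator PA200, was 1.33-fold higher at 0.41 (adjusted p = 5.52e-05). PSME2 (0.25, adjusted p = 0.00412) and PSME1 (0.16, adjusted p = 0.028), which together form the interferon-inducible activator PA28, were higher by less in the authors' deposited table. PSMF1, known as PI31 and first described as an inhibitor, stood at -0.03 with an interval of -0.13 to 0.07 and did not pass the test. The immunoproteasome subunits, which replace the cutting subunits of the beta ring after interferon, did not move as one group. PSMB9 was lower at -1.06, whereas PSMB10 (0.28) and PSMB8 (0.06) did not pass the test in the authors' deposited table. All were at low expression, with means of 1.83 log2 CPM for PSMB9, 2.12 for PSMB10 and 3.91 for PSMB8. PSMB10 had a wide interval of -0.05 to 0.61, and the differences among these genes were not tested.

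Genes that work with the proteasome but carry no PSM name leaned the same way, with exceptions. Of 11 on this list, 7 were higher (63.6%), 2 lower (18.2%) and 2 without a call, against 24.9% higher and 25.9% lower over all genes. Most of the 11 lie at 5 to 8 log2 CPM, where 32.0% of genes were higher and 24.6% lower. The median log2 fold change of the 11 was 0.20. ADRM1, a ubiquitin receptor of the cap, was 1.49-fold higher at 0.57 (adjusted p = 0.00147) in the authors' deposited table, whereas its fellow receptor PSMD4 stood at 0.06. POMP, which matures the core, stood at 0.34 and was higher, and PAAF1, a chaperone of the ATPase ring, stood at -0.11 and did not pass the test. The ubiquitin ligase UBE3C (0.31), the deubiquitinases USP14 (0.21) and UCHL5 (0.17), the thioredoxin-like TXNL1 (0.21) and the small cap subunit SHFM1 (0.20) were higher in the authors' deposited table. AKIRIN2 (-0.20), which brings proteasomes into the nucleus, and KIAA0368 (-0.14), the human Ecm29, were lower. IPO9, the import receptor that acts with AKIRIN2, stood at -0.02.

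Upstream of the proteasome, p97, the ATPase that extracts ubiquitinated proteins, was higher together with some of its cofactors. VCP, which encodes p97, stood at 0.46 (1.38-fold, adjusted p = 3.02e-05) in the authors' deposited table. Its cofactors UFD1L (0.34) and NPLOC4 (0.29) were higher as well, as was FAF2 (0.14), while FAF1 (-0.14) was lower. NSFL1C (0.21), UBXN1 (-0.08) and UBXN7 (-0.14) did not pass the test. The list of p97 and its cofactors thus had 4 of 8 higher (50.0%) and 1 lower (12.5%), against 24.9% and 25.9% over all genes. Among genes of 5 to 8 log2 CPM, where most of the 8 lie, the shares were 32.0% and 24.6%. Ubiquitin-activating and ubiquitin genes had 1 of the 5 reported here higher and 0 lower, the higher gene being UBA1, the main activating enzyme, at 0.24. The ubiquitin gene UBB stood at -0.14 with a wide interval of -0.64 to 0.36. Of the 4 shuttle receptors reported here, which carry ubiquitinated proteins to the cap, 2 were higher (50.0%) and 0 lower. UBQLN4 (0.62, 1.54-fold) and RAD23B (0.14) passed the test, with UBQLN2 (0.14) and UBQLN1 (-0.04) not past the test in the authors' deposited table.

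The COP9 signalosome, a relative of the lid built from similar subunits, gave a comparison among complexes of like architecture. Of 9 subunits, 3 were higher and 1 lower, with a median log2 fold change of 0.09, against 0.21 for the lid. COPS7A (0.19), COPS8 (0.16) and COPS6 (0.15) were higher and COPS2 (-0.19) was lower in the authors' deposited table. The share of signalosome subunits that were higher is near the 32.0% of all genes of 5 to 8 log2 CPM. The difference between the complexes was not tested.

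Of 14 factors known to act on proteasome genes, with their partners, 5 were higher, 5 lower and 4 without a call, a near even division as over all genes (24.9% higher and 25.9% lower), around a median log2 fold change of -0.02. NFE2L1 was lower at -0.25 ± 0.05 (SE) (adjusted p = 0.0015) in the authors' deposited table. Its relative NFE2L2, the oxidative stress factor, was lower at -0.50 (1.42-fold, adjusted p = 2.35e-05). Processing of the NFE2L1 protein needs the protease DDI2 (0.01) and the glycanase NGLY1 (-0.05), and neither passed the test; RNA levels do not show how much NFE2L1 protein is active. NFE2L3 (0.26) and the ligase SYVN1 (0.22) were higher. Among small MAF partners, MAFF (0.61) and MAFK (0.45) were higher at low expression of about 2 log2 CPM, and MAFG (-0.20), at 5.52 log2 CPM, was lower. Of the NF-Y subunits, NFYA (0.44) was higher, and NFYB (-0.35) and NFYC (-0.20) were lower in the authors' deposited table. KEAP1 (0.12) and FBXW7 (-0.10), which mark such factors for degradation, did not pass the test.

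**Figure D4:**
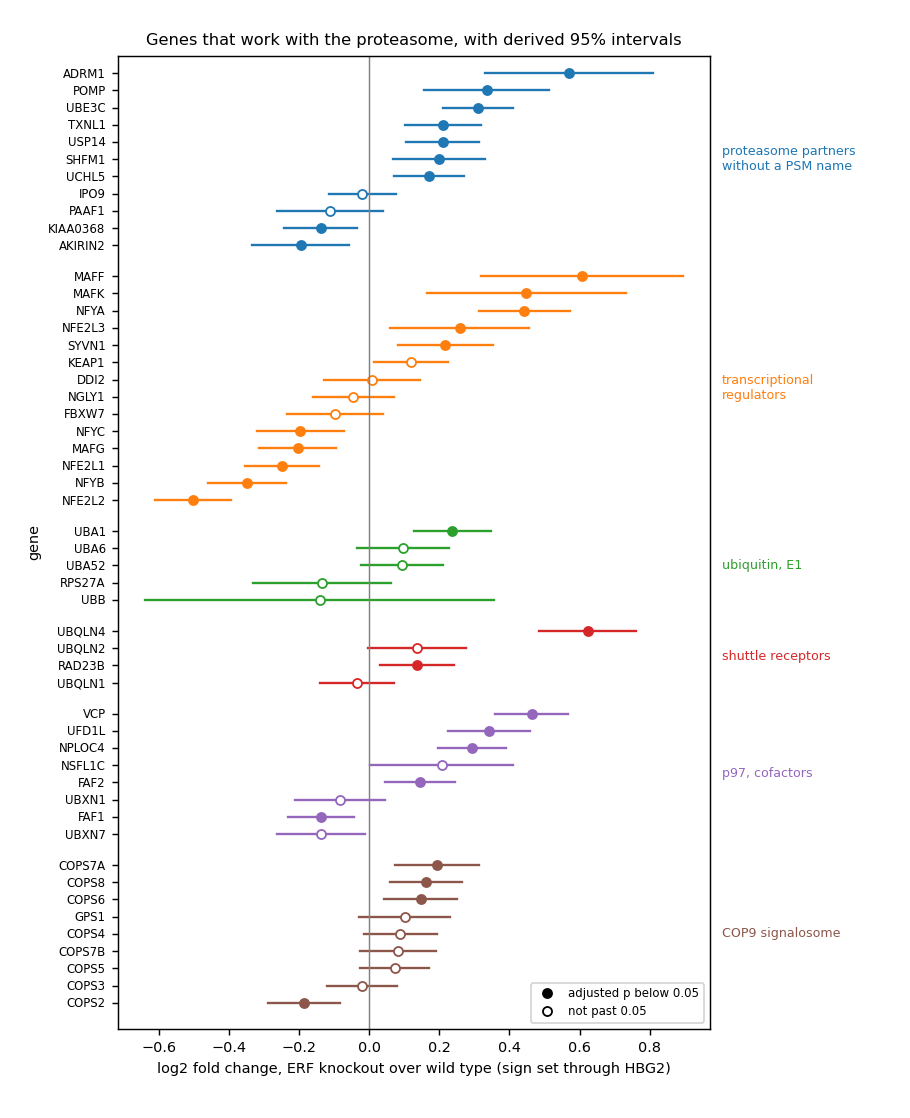
Log2 fold change of 51 genes that work with the proteasome, by list, ERF knockout over wild type, with the sign set through HBG2. Points are values of the authors' deposited table, bars are derived 95% intervals and filled points passed an adjusted p of 0.05; ADRM1, UBQLN4 and VCP lie right of 0, and NFE2L1 and NFE2L2 lie left of it.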

How the data were processed

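Total RNA of HUDEP-2 cells was extracted with Trizol and made into Illumina TruSeq libraries, per the labels. The genome build was hg19/GRCh37, and edgeR 2.6.12, HTSeq, TopHat2 2.0.4, Cuffdiff and SAMtools were among the tools, in unstated roles, per the submitters' processing notes. The authors deposited 1 table of 11979 rows, with, per the file headers, a log2 fold change and mean log2 CPM, an F score of a quasi-likelihood test, and a p-value with its Benjamini-Hochberg adjusted p-value. No source used here gives the filter, the normalization, the strand setting or what "Pre" in its name means. The 3 rows that name no gene hold 21.5% of its summed CPM and were left out of counts.

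Values were multiplied by -1 through HBG2. Standard errors were derived as the absolute log2 fold change over the square root of F, and 95% intervals from the t distribution with 10.3 degrees of freedom, solved from F and p; both are approximate. Calls used the deposited adjusted p below 0.05, over the whole table, with no list test. The derivations were tested on simulated data. GENCODE 29 (GRCh38) gave exons and neighbours by Ensembl identifier, and 1 gene (PSMB3) by symbol. Printed promoter stretches over 30 bases hold no GENCODE exon. Python 3.11.15, numpy 2.4.6, pandas 2.3.3, scipy 1.17.1 and matplotlib 3.10.9 were used. Every proteasome gene could be named, and of the other lists all genes past the threshold, except some that are not reported here and stand in no count of a list. The members and lists were chosen with earlier results of these data known.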

Additional observations from a re-analysis of the deposited data

How the results depend on the processing

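Counts and medians were recomputed under 7 alternatives, of which only the centred ones change the fold changes themselves. Adjusting again over rows that name a gene, or centring on the median of all genes, changed no count by over 1.5 times. With an absolute log2 fold change of at least 0.2 as well, the higher genes numbered 15 of the 45 proteasome genes, 5 of the 20S core, 2 of the 19S base, 1 of the shuttle receptors and 0 of the COP9 signalosome, and the lower genes 0 of the signalosome, 0 of the partners without a PSM name and 0 of p97 and its cofactors. At an adjusted p threshold of 0.01 the higher genes numbered 2 of the 19S base, 0 of the signalosome, 1 of the shuttle receptors and 2 of the transcriptional regulators, and the lower genes 0 of the partners and 0 of p97 and its cofactors. With genes of at least 5 log2 CPM only, 1 proteasome-named gene and 1 partner were lower and 2 regulators higher; several members were then not tested. Centred on the median of those genes, 1 shuttle receptor was higher and 2 of p97 and its cofactors lower, and DDI2 (-0.027) changed sign without passing the threshold. Without the 3 names that are no proteasome protein, 0 were lower. The median log2 fold change of the proteasome genes moved by less than 0.049 under every alternative that was run. That yardstick is the median standard error of the single genes and not an error of their median. Alternatives that changed only the calls left this median as it was. Over single genes and alternatives, 524 outcomes kept direction and side of the threshold, 45 kept direction but lost the call, 1 gained it and 1 changed sign. A direction could change only where values were centred, because the other alternatives reuse the deposited fold changes. The stricter threshold and the minimum fold change could only remove calls. Most of this tally of direction was therefore fixed in advance.

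No paired analysis was possible because the table holds no values per library; leaving out replicates was not run for the same reason. Library depth is unknown, and members under 5 log2 CPM have wide intervals: 1 of 8 proteasome proteins there passed the threshold.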

Other observations

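Several proteasome genes start next to a gene on the opposite strand. In GENCODE 29, 10 of the 42 proteasome proteins have a measured neighbour that starts within 1000 bases on the other strand. Of these neighbours, in the authors' deposited table, 5 were lower, 2 higher and 3 without a call, under the sign set through HBG2, against 25.9% lower and 24.9% higher over all genes. With 10 neighbours, these counts are a description. PSMA7 stood at a log2 fold change of 0.24 and SS18L1, a chromatin regulator whose start lies 355 bases away, at -0.43 (adjusted p = 0.000306). PSMD13 stood at 0.05 and SIRT3, a mitochondrial deacetylase that starts 385 bases away, at -0.54 (adjusted p = 0.000143). PSMD10 stood at 0.06 and ATG4A, an autophagy protease that starts 50 bases away, at -0.31 (adjusted p = 0.0014). PSMG4 stood at -0.07 and TUBB2B, a tubulin at a low 1.63 log2 CPM, at -1.12. PSMA1 stood at -0.06 and the phosphodiesterase PDE3B, 88 bases away, at -0.18, the fifth lower neighbour.

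The higher neighbours were MRPL32, a mitochondrial ribosomal protein 23 bases from PSMA2, at 0.16, and DNAJC2, a ribosome-associated chaperone 619 bases from PSMC2, at 0.16, in the authors' deposited table. Neither PSMA2 (0.13) nor PSMC2 (0.07) passed the test. TBP (-0.11), next to PSMB1 (0.12), RNF31 (-0.04), next to PSME2 (0.25), and ACYP2 (0.30), next to PSME4 (0.41), did not pass it. The differences within these pairs were not tested, and gene starts in GENCODE 29 may differ from those used in these cells.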
